A study of Mus musculus with 14 samples.

Results

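The genes described here are 37 imprinted genes of the mouse, a set built around *Grb10* and chosen by symbol. *Grb10* was selected with its values known, because it was lower in all 4 culture libraries labelled KO, so its own ratios in culture are a description and support nothing. All 37 were found among the 22713 genes of the RNA-seq tables, 1 of them, *Nespas*, under the synonym *Gnasas1*. RNA-seq covered 11 libraries, compared in 6 tables with 1 library per condition. ES cells labelled WT (JM8 clone) and TAF9B -/- (Taf9b_BG10 clone) were grown undifferentiated and as embryoid bodies (EBs) for 2, 4 and 6 days toward motor neurons with retinoic acid and a smoothened agonist. Both lines are male and of C57BL/6 background, and each is a single clone. Per the methods both were kept on mouse embryonic fibroblast feeders. The KO allele of the X-linked *Taf9b* carries *LacZ-Neo* and lacks the gene's coding sequence. Lumbar spinal column was taken from newborn WT and *Taf9b* KO littermates, of mice made from the KO ES cells, and newborn spinal cord from WT mice alone. Column tissue includes bone, cartilage and muscle around the cord. How many animals entered each tissue library is not given in the sources used here.

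Imprinted genes are expressed from only the maternal or only the paternal copy, according to DNA methylation laid down in the egg or the sperm. They lie in clusters, each governed by a control region whose methylated copy is bound by ZFP57 and TRIM28 and maintained by DNMT1. Many act on fetal growth, and cultured ES cells are known to lose or gain methylation at such regions. *Grb10* encodes an adaptor that restrains signalling of the insulin and IGF1 receptors. It is expressed from the maternal copy in most tissues and from the paternal copy in neurons, where a downstream CpG-rich promoter is used.

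Values are FPKM (fragments per transcript length and library depth) as the authors deposited them, and every ratio is a log2 value, labelled KO divided by labelled WT, without a pseudocount. A gene was compared when it exceeded 1 FPKM in at least 1 library of a pair, and was counted as different when it was more than 2-fold apart. With 1 library per condition there is no replicate error, so no test was made and no difference can be set against a spread between replicates. The depth is unknown, since the tables hold no counts. *Taf9b* itself was higher in each of the 4 culture libraries labelled KO, which goes against the labels. It was at 3.06 to 4.27 FPKM there, against 0.516 to 1.96 FPKM in those labelled WT. In KO spinal column it was lower than in WT (3.31 against 6.65 FPKM). Every library labelled KO, from culture or column, thus kept a *Taf9b* value, although the KO allele lacks the coding sequence. The source of these values was not tested. Directions are therefore given by label. Among genes of cell identity at EB day 6, WT label first, *Tubb3*, the neuronal tubulin gene, was at 561 and 41.3 FPKM, and the pluripotency genes *Pou5f1* and *Nanog* were at 198 and 543 FPKM and at 62.5 and 172 FPKM. Of 12 general neuron genes used to check the spinal cord label, all were more than 2-fold higher there than in ES cells.

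TAF9B and RNA POL2 were mapped in motor neuron EBs of another WT line, HBG3 (which carries GFP under *Mnx1*), differentiated for 8 days, as 1 ChIP-seq library each. A TAF9B peak with its midpoint within 500 bp of an annotated start was present at 13 of the 36 members whose start sites GENCODE lists on mm9 (*Kcnq1ot1* has no entry). Windows of 300 bp on the midpoints of 3 of these peaks are given, on the plus strand of mm9, with each CpG dinucleotide, the site of DNA methylation, in capitals. They are shown because *Grb10* is the gene the set was built around, *Plagl1* is a member with peaks of both factors that was more than 8-fold apart at EB days 4 and 6, and *Airn* had the fewest CpGs among the windows at member start sites.
Grb10 chr11:11925781-11926080: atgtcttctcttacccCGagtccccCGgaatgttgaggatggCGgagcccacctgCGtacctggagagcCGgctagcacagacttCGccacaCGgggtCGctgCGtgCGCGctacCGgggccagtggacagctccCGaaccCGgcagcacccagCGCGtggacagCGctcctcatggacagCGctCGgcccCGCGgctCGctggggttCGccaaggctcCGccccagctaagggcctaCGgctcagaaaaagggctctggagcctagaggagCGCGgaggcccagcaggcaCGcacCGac
Plagl1 chr10:12810400-12810699: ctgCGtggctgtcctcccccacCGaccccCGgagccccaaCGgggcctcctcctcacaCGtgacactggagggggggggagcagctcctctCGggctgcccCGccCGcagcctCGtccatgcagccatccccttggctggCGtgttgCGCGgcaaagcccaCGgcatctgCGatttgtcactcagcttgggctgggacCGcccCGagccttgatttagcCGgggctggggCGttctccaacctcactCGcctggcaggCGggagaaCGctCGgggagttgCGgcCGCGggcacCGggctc
Airn chr17:12934007-12934306: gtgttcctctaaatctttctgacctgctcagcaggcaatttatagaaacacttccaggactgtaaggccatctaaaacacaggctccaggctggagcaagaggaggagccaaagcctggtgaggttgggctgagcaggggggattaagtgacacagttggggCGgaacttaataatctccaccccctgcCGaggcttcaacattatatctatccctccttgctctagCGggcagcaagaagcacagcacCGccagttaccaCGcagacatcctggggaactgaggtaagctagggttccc

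The *Grb10* window held 29 CpGs, the *Plagl1* window 26 and the *Airn* window 5. Across 10402 TAF9B peaks the median was 11 CpGs per 300 bp, and 98.3% of windows held at least 1. At least 29 were found in 9.22% of windows, at least 26 in 15.4% and at least 5 in 76.1%. The 12 windows at member start sites outside chromosome 18 had between 5 and 29 CpGs, with a median of 20.5. The windows of all TAF9B peaks include those away from start sites, and start-site peaks alone were not counted. The medians and shares are therefore not like for like, and nothing is read from their difference. These are counts of letters, and DNA methylation was not measured.

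*Grb10* (NM_001177629, chromosome 11 from 11830502 to 11937423 on mm9) had 83.1 FPKM in ES cells labelled WT and 32.0 FPKM in ES cells labelled KO. At EB day 2 it was at 53.4 and 20.1 FPKM, at day 4 at 299 and 42.8 FPKM, and at day 6 at 125 and 14.3 FPKM. The log2 ratios were -1.38, -1.41, -2.80 and -3.12. Both lines had their highest culture level at day 4, in tables that were normalized separately. In newborn spinal column, a measurement that the choice did not use, *Grb10* was at 201 FPKM in WT and 177 FPKM in KO tissue, a log2 ratio of -0.19. Thus the library labelled KO was lower than its partner by more than 2-fold in each culture pair but not in this tissue pair.

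**Figure D1:**
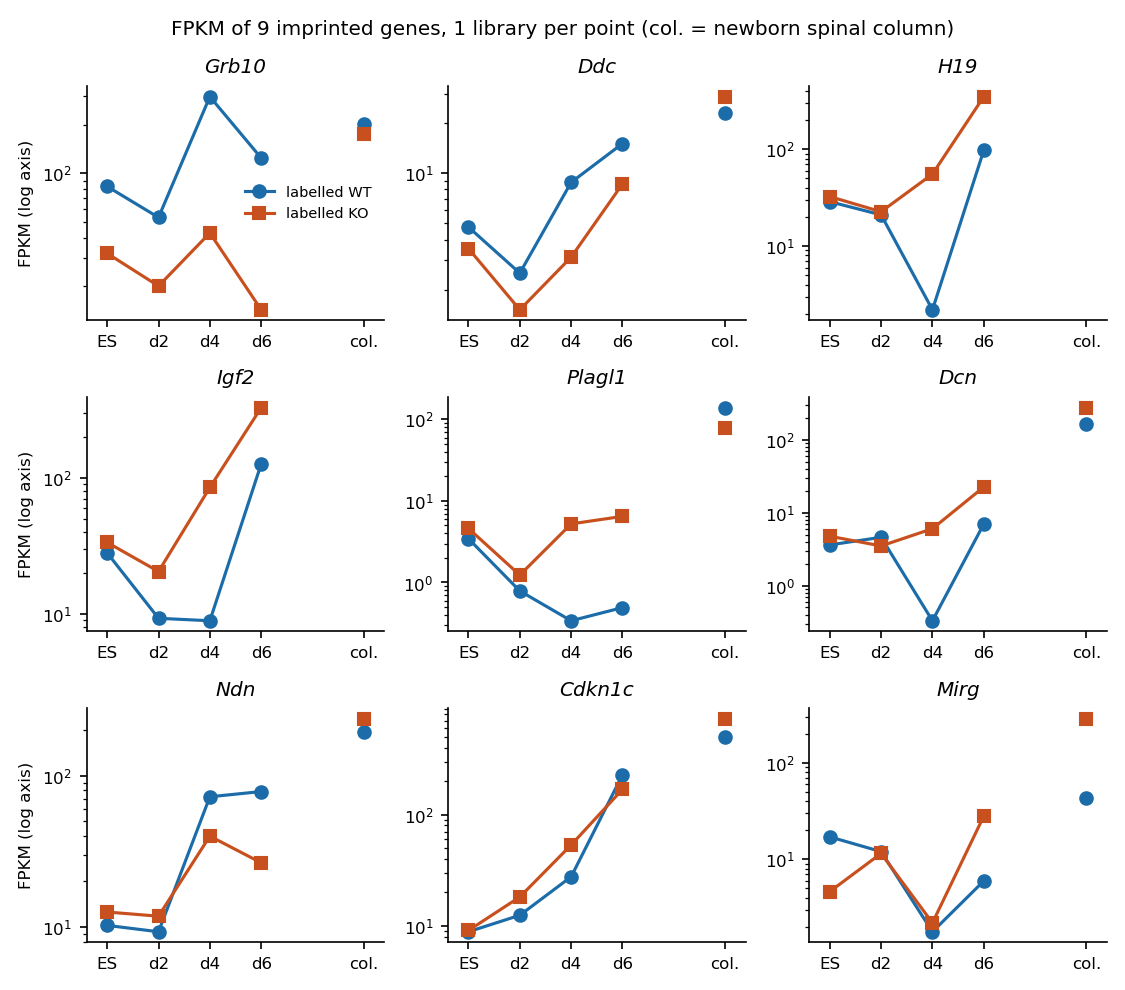
FPKM (log axis) of 9 imprinted genes in ES cells (ES), in EBs at days 2, 4 and 6 (d2, d4, d6) and in newborn spinal column (col.), as blue circles for libraries labelled WT and orange squares for those labelled KO, with 1 library per point and no error bars. *Grb10* in culture runs from 53.4 to 299 FPKM in blue and from 14.3 to 42.8 FPKM in orange, while *H19* and *Igf2* have culture points only, since their spinal column values are missing.

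Of 10967 genes above 1 FPKM in at least 1 library of every culture pair, 10 were more than 2-fold lower in all 4 libraries labelled KO, or 0.0912%. *Grb10* was the only member among the 31 members compared in all pairs. Ordered by their smallest fall, the 5 leading genes were *Mir692-1*, *Gm5779*, *Mid1*, *4930470H14Rik* and *Grb10*, and the first 4 had log2 ratios of -6.38, -3.64, -2.61 and -2.89 in ES cells. None of these 4 is an imprinted member. More than 2-fold higher in all 4 libraries labelled KO were 4 genes, or 0.0365%, and no member was among them.

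The neighbours of *Grb10* within 500 kb were compared next. *Ddc*, which encodes the decarboxylase that makes dopamine and serotonin and is imprinted in the heart, lies next to *Grb10* (from 11714104 to 11798147). It was at 4.75 and 3.53 FPKM in ES cells, 2.51 and 1.52 FPKM at day 2, 8.80 and 3.14 FPKM at day 4, and 15.0 and 8.61 FPKM at day 6, the library labelled WT first. *Ddc* was thus on the same side as *Grb10* in the 4 culture pairs, past 2-fold only at day 4, and it was on the other side in spinal column (23.1 and 28.8 FPKM). *Fignl1*, beyond *Ddc*, was at 54.8 and 54.1 FPKM in ES cells, and its log2 ratio was 0.46 at day 6. *Cobl*, on the other flank, was at 43.8 and 36.3 FPKM in ES cells and at day 6, with 3.16 and 10.7 FPKM, it was higher under the KO label; it is also on the list of further imprinted genes. *1700042O10Rik*, which shares the span of *Ddc*, was at 1.25 and 0.530 FPKM in ES cells, more than 2-fold lower under the KO label (-1.24). It was below 1 FPKM in both libraries at days 2 and 4, with log2 ratios of -1.94 and -1.17. At day 6 it was at 1.68 and 1.20 FPKM, lower within 2-fold (-0.49). *Ikzf1*, *Zpbp* and *Spata48* were below 1 FPKM in the 8 culture libraries.

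In undifferentiated ES cells, where the comparison asks whether imprinted loci differ between the lines, 32 members were compared and 30 of them lay within 2-fold. The 2 exceptions, 6.25% of the members against 1.03% of all genes, were *Grb10* and *Mirg*, both lower in the library labelled KO. *Grb10* was chosen for being lower in culture, so nothing is read from this share. Nor is anything read, at the later days, from the shares of lower members or of members past 2-fold in either direction. Among all 11928 genes compared, 0.57% were more than 2-fold lower and 0.461% more than 2-fold higher. The members' median log2 ratio was 0.17 against 0.02 for all genes, and 22 of the 32 members were above 0 against 55.9% of all genes. By textbook assignment, 20 members are paternal, 9 maternal and 8 depend on the tissue. Of the paternal members compared, 14 of 16 were above 0, as were 4 of 8 maternal ones. The largest differences within 2-fold were at *Nespas*, the paternal antisense RNA of the *Gnas* locus (0.705 and 1.19 FPKM), *Peg12*, a paternal gene of the Prader-Willi region (1.68 and 2.73 FPKM) and *Zrsr1* (3.64 and 5.73 FPKM). *Airn*, *Usp29*, *Zim1*, *Kcnq1ot1* and *Magel2* were at or below 1 FPKM in both libraries and were not compared.

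The paternal and maternal genes of the larger clusters were close together in the ES cell pair. *H19*, a maternal non-coding RNA, was at 28.7 and 32.4 FPKM, and its neighbour *Igf2*, the paternal growth factor gene, at 28.1 and 33.6 FPKM. *Snrpn*, a splicing factor gene of the Prader-Willi region, was at 82.3 and 91.9 FPKM. *Peg3*, a zinc finger gene, was at 23.0 and 22.4 FPKM and *Mest*, a paternal gene of the hydrolase fold, at 40.9 and 49.8 FPKM. In the *Dlk1* cluster on chromosome 12, *Meg3* (14.1 and 15.0 FPKM) and *Rian* (42.6 and 53.3 FPKM), both maternal non-coding RNAs, were detected in both lines. *Mirg*, the next non-coding RNA of that cluster, was at 17.1 and 4.62 FPKM.

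Fibroblast genes were read in ES cell libraries of both labels, where *Col1a1* was at 158 and 170 FPKM. The 12 fibroblast and mesenchyme genes summed to 461 and 497 FPKM, WT label first, none of them at 0 and none past 2-fold. The 10 ES cell genes summed to 5853 and 6262 FPKM. Several members (*H19*, *Igf2*, *Dcn*, *Meg3*) are also expressed by fibroblasts. How much of their level in these libraries came from feeder cells was not tested.

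At EB day 2, 4 of 32 members were past 2-fold, 12.5% against 2.5% of all genes. This count includes *Grb10*, and *Dlk1* was compared only through the library labelled KO, so nothing is read from the share. *Grb10* was lower. *Igf2* (9.27 and 20.5 FPKM), *Dlk1* (0.543 and 1.26 FPKM), which encodes a Notch-like protein of progenitor cells, and *Ascl2* (4.003 and 11.1 FPKM), a bHLH factor of trophoblast, were higher in the library labelled KO. Over all genes 1.35% were more than 2-fold lower and 1.15% higher. The 10 trophectoderm genes summed to 121 and 198 FPKM, with 3 of the 7 compared more than 2-fold higher, while *Cdx2*, which defines this lineage, was below 1 FPKM in both libraries. The part of such cells in the *Ascl2* value was not tested.

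At EB day 4, 11 of 33 members were past 2-fold (33.3%, against 16.4% of all genes), a count that includes *Grb10*. More than 2-fold higher in the library labelled KO were 9 members (27.3%), where 12.1% of all genes were. Of these 9, *Plagl1*, *Dcn* and *Ascl2* were compared only through the library labelled KO, and 6 were higher with both libraries above 1 FPKM. The share of all genes at that stricter limit is not given, so the 6 have no background beside them. Lower by more than 2-fold were 2 members, *Grb10*, which was chosen for being lower, and *Ddc*, where 4.3% of all genes were lower, and nothing is read from this share. The median log2 ratio was 0.31 for the members and -0.03 for all genes. The ratios of *H19*, *Dcn*, *Plagl1*, *Igf2*, *Ascl2*, *Nnat* and *Phlda2* lay above the point that 95% of all genes stayed below, a log2 ratio of 1.88. In such bulk samples, fewer cells of a type and less RNA per cell cannot be told apart.

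At day 4 *H19* was at 2.20 FPKM under the WT label and 55.4 FPKM under the KO label, a log2 ratio of 4.66. *Igf2*, beside it on chromosome 7, was at 8.89 and 85.3 FPKM (3.26). Both genes of this pair, which are normally read from opposite parental copies, were thus on the same side. *Igf2r*, the maternal gene for the receptor that clears IGF2, was at 14.1 and 31.9 FPKM (1.17). *Airn*, the paternal antisense RNA across *Igf2r*, was at 0.937 and 1.25 FPKM. *Plagl1*, a paternal zinc finger gene that acts on other imprinted genes, was at 0.339 and 5.23 FPKM (3.95). *Dcn*, the proteoglycan gene decorin, which is imprinted in placenta, was at 0.329 and 6.03 FPKM (4.20).

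In the *Kcnq1ot1* cluster, 3 genes were also more than 2-fold higher under the KO label at day 4. *Phlda2*, a placental growth inhibitor, was at 7.18 and 31.7 FPKM (2.14). *Slc22a18*, a transporter gene, was at 1.31 and 4.56 FPKM (1.80), and *Ascl2* at 0.520 and 4.82 FPKM (3.21). *Cdkn1c*, the cell cycle inhibitor p57, was at 27.7 and 53.5 FPKM and stayed within 2-fold (0.95). *Kcnq1ot1*, the paternal RNA whose transcription silences these genes, was below 1 FPKM in all 11 libraries and was not compared. *Nnat*, a small paternal membrane protein gene of neurons, was at 6.41 and 35.5 FPKM (2.47). Counted by the usual active copy, 4 of 8 maternal members and 3 of 17 paternal members were more than 2-fold higher, where 12.1% of all genes were.

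**Figure D2:**
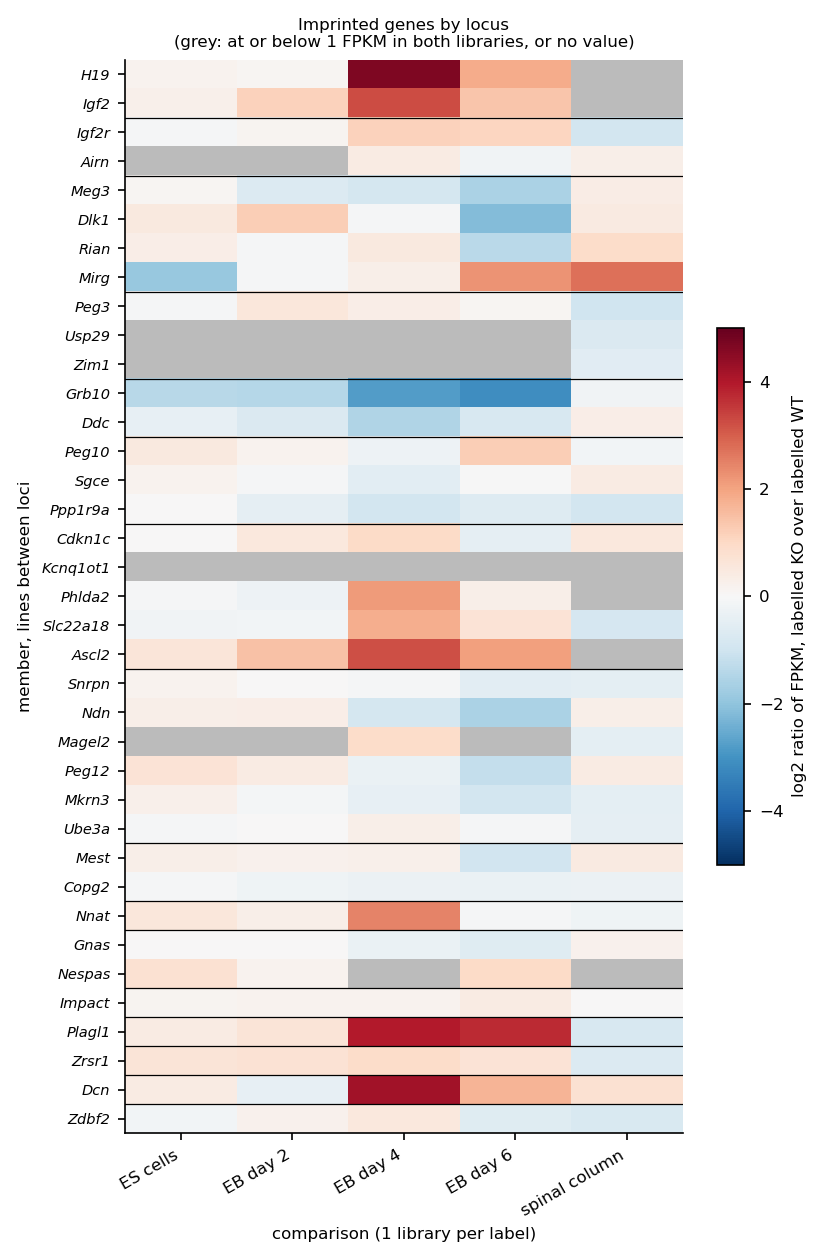
Log2 ratio of FPKM, library labelled KO over library labelled WT, for 37 imprinted genes (rows, with lines between loci) in 5 comparisons (columns) of 1 library per label. Red is higher and blue lower in the library labelled KO, and grey marks genes at or below 1 FPKM in both libraries or without a value; *Grb10* is blue in the 4 culture columns, and day 4 holds the 9 members more than 2-fold higher.

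Markers of other cell types moved with these members at day 4. Among the 12 fibroblast and mesenchyme genes, 11 were more than 2-fold higher in the library labelled KO, with sums of 12.2 and 46.3 FPKM and none at 0. *Col1a1* was at 1.23 and 9.74 FPKM. The 10 ES cell genes summed to 199.5 and 961 FPKM, with 9 more than 2-fold higher, and the 10 trophectoderm genes to 48.3 and 287 FPKM, with 8 more than 2-fold higher of 8 compared. Of 12 visceral endoderm genes, 3 of the 7 compared were more than 2-fold higher, with sums of 21.1 and 30.4 FPKM, and *Afp* and *Ttr* were below 1 FPKM in both libraries. The part of these cell types in the members' values was not tested.

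**Figure D3:**
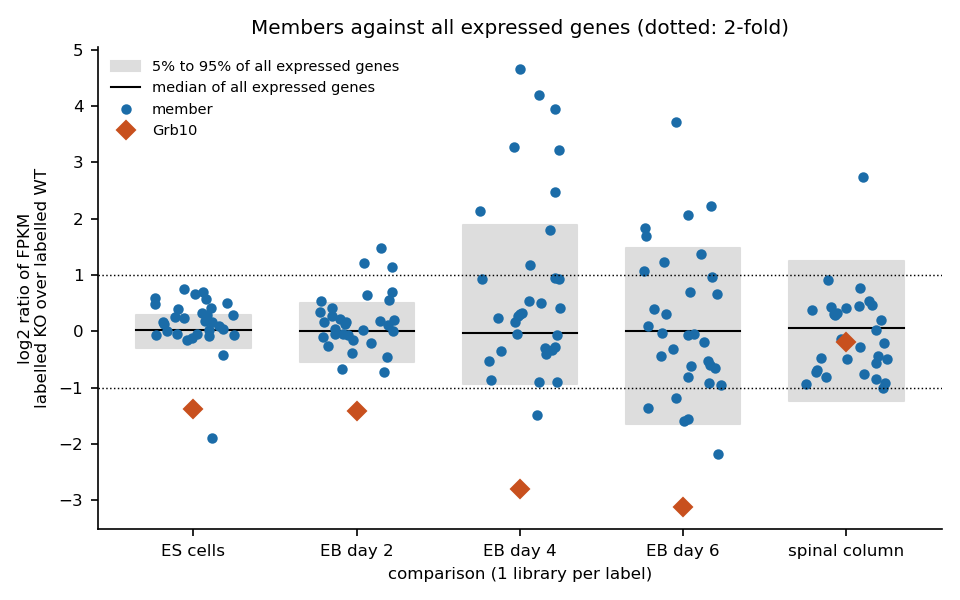
Log2 ratio of FPKM, library labelled KO over library labelled WT, for each member (blue dots) and *Grb10* (orange diamonds) in 5 comparisons, 1 library per label. Grey bars span 5% to 95% of all expressed genes, black lines are their medians and dotted lines mark 2-fold; *Grb10* lies below the grey bar in the 4 culture comparisons and at -0.19 in spinal column.

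At EB day 6, 14 of 33 members were past 2-fold (42.4%, against 20.3% of all genes), a count that includes *Grb10*. In this pair 8 members were more than 2-fold higher in the library labelled KO (24.2%, against 10.5% of all genes) and 6 were lower, or 5 without *Grb10* (9.84% of all genes were lower). With both libraries above 1 FPKM, 7 were higher and 6 lower, and the shares of all genes at that stricter limit are not given. The median log2 ratio of the members was -0.06 and that of all genes -0.0023. Higher were *H19* (97.4 and 349 FPKM), *Igf2* (127 and 331 FPKM), *Igf2r* (9.51 and 19.95 FPKM) and *Dcn* (6.98 and 22.5 FPKM). *Plagl1* was at 0.492 and 6.47 FPKM, a log2 ratio of 3.72, and *Ascl2* at 3.93 and 16.5 FPKM. *Peg10*, a paternal gene derived from a retrotransposon and needed in placenta, was at 53.8 and 126 FPKM, whereas its neighbour *Sgce*, a sarcoglycan gene that shares its promoter region, was at 13.6 and 13.4 FPKM. *Phlda2* (34.6 and 43.0 FPKM) and *Nnat* (23.1 and 22.1 FPKM) were within 2-fold at this day.

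The *Dlk1* cluster on chromosome 12 was split at day 6. *Dlk1* was at 17.9 and 3.99 FPKM (-2.17), *Meg3* at 10.6 and 3.51 FPKM (-1.60) and *Rian* at 35.1 and 13.7 FPKM (-1.35), so that the paternal *Dlk1* and these maternal RNAs were all lower in the library labelled KO. *Mirg*, a maternal RNA farther along the same cluster, was at 5.95 and 28.0 FPKM (2.23).

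In the Prader-Willi region of chromosome 7, *Ndn*, which encodes necdin, a protein of postmitotic neurons, was at 78.5 and 26.5 FPKM at day 6 (-1.56) and *Peg12* at 8.39 and 3.71 FPKM (-1.18). *Mkrn3*, at 4.08 and 2.15 FPKM, and *Snrpn*, at 128 and 89.3 FPKM, were lower within 2-fold. *Ube3a*, the ubiquitin ligase gene that is maternal in neurons, was at 6.75 and 6.49 FPKM. *Magel2* was below 1 FPKM in both libraries. *Mest* (166 and 86.1 FPKM, -0.95) and *Gnas*, which encodes the stimulatory G protein subunit (712 and 462 FPKM, -0.62), were also within 2-fold. All 12 neuron genes were more than 2-fold lower in the library labelled KO, with sums of 1271 and 147 FPKM. Of the fibroblast and mesenchyme genes 7 of 12 were more than 2-fold higher, with sums of 72.7 and 163 FPKM, and of the trophectoderm genes 9 of 9, with sums of 154 and 1146 FPKM. The 10 ES cell genes summed to 1559 and 4344 FPKM, with 8 more than 2-fold higher. What these cell types contributed to the members' ratios was not tested.

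Over the 4 culture pairs, 3 of the 31 members compared in all of them were lower in each library labelled KO (9.68%, against 12.2% of all genes). These were *Grb10*, *Ddc* and *Copg2*, of which *Copg2*, a coat protein gene that overlaps the *Mest* locus, had log2 ratios from -0.32 to -0.08. *Grb10* was chosen for this very pattern, so nothing is read from the share of lower members. Higher in each were 6 members (19.4%, against 14.9%): *H19*, *Igf2*, *Ascl2*, *Impact*, *Plagl1* and *Zrsr1*. *Impact*, a paternal gene for a regulator of translation, had ratios from 0.13 to 0.39, and *Zrsr1*, a paternal splicing factor gene inside *Commd1*, from 0.65 to 0.92. Because the 4 pairs come from the same 2 clones, they are not replicates of a genotype. *Ppp1r9a*, which encodes the neuronal scaffold neurabin, and *Zdbf2* stayed within 2-fold in each culture pair, with log2 ratios from -0.90 to 0.01 and from -0.59 to 0.54.

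In newborn spinal column, 31 members were compared and 29 lay within 2-fold. *Peg3* was at 35.9 and 17.8 FPKM (-1.01) and *Mirg* at 42.8 and 287 FPKM (2.74). Among all genes 8.53% were more than 2-fold lower and 8.94% higher, so that 6.45% of members against 17.5% of all genes were past 2-fold. The members' median log2 ratio was -0.19, against 0.05. *H19* and *Igf2* have no value in this table, since the loci carry the Cuffdiff status HIDATA (too many fragments to be processed) and are listed at 0. High levels in both libraries were found for *Gnas* (2068 and 2389 FPKM), *Rian* (541 and 1018 FPKM), *Cdkn1c* (502 and 731 FPKM), *Dlk1* (419 and 571 FPKM) and *Mest* (342 and 471 FPKM). *Plagl1* was at 139.5 and 79.3 FPKM, the KO library here being the lower. *Phlda2* was listed at 0 in WT and was at 0.711 FPKM in KO tissue, and *Ascl2* was at 0.123 FPKM and listed at 0. The 12 neuron genes summed to 1394 and 762 FPKM, with 8 of 12 more than 2-fold lower in KO tissue, and 12 fibroblast and mesenchyme genes to 3758 and 2934 FPKM. The 7 skeletal muscle genes with values, of 12, summed to 13648 and 24210 FPKM, with 2 more than 2-fold higher, and 8 cartilage genes to 239.9 and 179 FPKM, with none past 2-fold. Of the visceral endoderm genes, 4 of 8 compared were more than 2-fold higher in KO tissue, with sums of 16.3 and 30.9 FPKM. Trophectoderm genes summed to 9.25 and 20.9 FPKM, with 4 of 7 compared more than 2-fold higher. The part of these tissues in the members' values was not tested.

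Newborn WT spinal cord and ES cells labelled WT were set side by side in a table of their own. Of 35 members compared, 27 were past 2-fold, or 77.1%, where 66.1% of all genes were. Of these, 18 were more than 2-fold higher in spinal cord (51.4%, against 30.3% of all 14246 genes) and 9 lower (25.7%, against 35.7%). The median log2 ratio, spinal cord over ES cells, was 1.30 for the members and -0.27 for all genes. Values of the same ES cell library run higher here than beside the KO line, by a median factor of 1.09.

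Paternal genes of neurons were among the members higher in spinal cord. With ES cells first, *Nnat* was at 11.7 and 1035 FPKM (6.47), *Ndn* at 11.2 and 336 FPKM (4.91), *Magel2* at 0.116 and 4.06 FPKM (5.13) and *Usp29*, a ubiquitin protease gene of the *Peg3* cluster, at 0.182 and 9.26 FPKM (5.67). *Magel2*, *Usp29*, *Zim1* and *Airn* were compared only through spinal cord, their ES cell values being below 1 FPKM. With both libraries above 1 FPKM, 14 members were higher and 6 lower. The shares of all genes at that stricter limit are not given, so these counts have no background beside them. *Zim1*, a maternal zinc finger gene of that cluster, was at 0.149 and 3.26 FPKM (4.45), and *Peg3* itself at 25.1 and 21.6 FPKM. *H19* (31.3 and 298 FPKM), *Igf2* (30.7 and 196 FPKM), *Gnas* (256 and 1471 FPKM) and *Cdkn1c* (9.65 and 59.2 FPKM) were also more than 2-fold higher. By the usual active copy, 11 of 18 paternal and 4 of 9 maternal members were higher, where 30.3% of all genes were. Markers of other cell types differed as well. With ES cells first, the skeletal muscle genes summed to 203 and 324 FPKM, with 8 of 10 compared more than 2-fold higher, and the fibroblast and mesenchyme genes to 502 and 423 FPKM, with 2 of 12 higher and 4 lower. The visceral endoderm genes summed to 36.9 and 70.2 FPKM, with 4 of 5 higher. All 10 ES cell genes were lower, with sums of 6377 and 42.6 FPKM, as were the 7 trophectoderm genes compared, with sums of 224 and 2.01 FPKM. Listed at 0 in spinal cord were *Pou5f1*, *Zfp42*, *Utf1*, *Cdx2*, *Gata4* and *Gata6*, and in ES cells *Afp*, *Ttr* and *Myl1*. The part of these cell types in the members' values was not tested.

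*Grb10* was lower in spinal cord, at 25.2 FPKM against 90.5 FPKM in ES cells (-1.85), as were *Peg10* (13.5 against 97.9 FPKM), *Igf2r* (3.77 against 15.9 FPKM) and *Zdbf2*, a paternal zinc finger gene (3.04 against 21.0 FPKM). *Phlda2* (at 118 FPKM in ES cells and listed at 0 in spinal cord), *Ascl2* (2.23 and 0.143 FPKM) and *Slc22a18* (3.91 and 0.656 FPKM), were lower too. *Igf2r* and *Airn*, which overlap on opposite strands, went apart, *Airn* being at 0.627 and 4.04 FPKM. *Mirg* was at 18.6 and 1.11 FPKM (-4.07), against 46.4 and 185 FPKM for *Rian* of the same cluster. *Sgce*, *Ppp1r9a*, *Snrpn*, *Mkrn3*, *Zrsr1*, *Rian*, *Dlk1*, *Airn* and *Dcn* made up the rest of the higher members, with log2 ratios from 1.30 to 2.69, and *Ddc* (5.17 and 2.01 FPKM) completed the lower ones. *Meg3*, *Peg3*, *Peg12*, *Ube3a*, *Mest*, *Copg2*, *Impact* and *Plagl1* lay within 2-fold. *Kcnq1ot1* and *Nespas* were below 1 FPKM in both libraries.

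**Figure D4:**
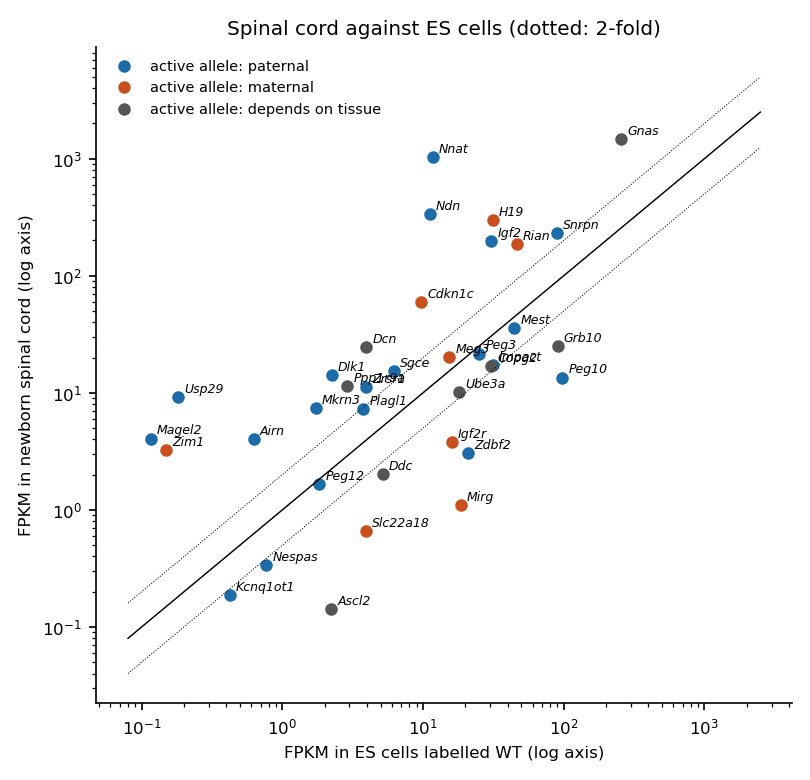
FPKM in newborn spinal cord (log axis) against FPKM in ES cells labelled WT (log axis) for 36 imprinted genes above 0 in both, 1 library per axis, coloured by the copy each gene is usually read from; *Phlda2*, listed at 0 in spinal cord, is left out. The solid line is equality and dotted lines mark 2-fold; *Nnat* and *Ndn* lie far above the line and *Mirg*, *Peg10* and *Grb10* below it.

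The ChIP data were examined at the members' start sites as a readout the choice did not use. Among the 33 members above 1 FPKM at day 6, 33.3% had a TAF9B peak and 51.5% an RNA POL2 peak at a start, against 30.7% and 53.5% of 11386 genes. Both factors were found at the starts of 9 members, *Airn*, *Peg3*, *Magel2*, *Mkrn3*, *Ube3a*, *Gnas*, *Nespas*, *Impact* and *Plagl1*. Among those above 1 FPKM at day 6 these were 8 of 33, or 24.2%, against 22.8% of all genes. *Plagl1* had its TAF9B peak, that of the printed window, at chromosome 10 from 12810394 to 12810705 and 32 bp from the start, with a MACS score of 74.3 (median of all TAF9B peaks, 83.3). The *Airn* peak, at chromosome 17 from 12934004 to 12934308, was 21 bp from its start and had a score of 238, inside *Igf2r* and 9510 bp from that gene's nearest start.

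At *Grb10*, 2 TAF9B peaks were listed and no RNA POL2 peak within 20 kb of the gene. The CpG-rich window printed is that of the peak on chromosome 11 from 11925761 to 11926099, which had a score of 111 and lay 397 bp downstream of a start inside the gene. The other, from 11873390 to 11873677, had a score of 204 and lay 2888 bp upstream of the nearest start. TAF9B without RNA POL2 was also found at the starts of *Meg3*, *Zim1* and *Ascl2*, of which *Zim1* was below 1 FPKM in the 8 culture libraries while its peak had a score of 305. RNA POL2 without TAF9B at the start was found at *Peg10*, *Sgce*, *Ppp1r9a*, *Cdkn1c*, *Snrpn*, *Ndn*, *Mest*, *Copg2* and *Nnat*. No peak of either factor lay within 20 kb of *H19*, *Dlk1*, *Rian*, *Phlda2*, *Dcn* or *Zdbf2*. The span of *Usp29* in the tables begins beside the peaks at the start of *Peg3*, but GENCODE lists no start there for *Usp29*, so they were counted for *Peg3* alone.

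The factors that keep or remove imprints were compared as a list of 20 genes. None of the 19 compared was past 2-fold in ES cells or at EB day 2, where 1.03% and 2.5% of all genes were. *Zfp57* was at 88.5 and 93.6 FPKM in ES cells, *Trim28* at 447 and 509 FPKM and *Dnmt1* at 54.7 and 51.1 FPKM. *Dnmt3l*, a cofactor in setting up methylation, was at 220.0 and 284 FPKM in ES cells. At day 4, *Dnmt3l*, *Tet1* and *Dppa3* were more than 2-fold higher in the library labelled KO, with log2 ratios of 3.82, 1.22 and 3.37, and none was lower. These were 3 of 19, where 12.1% of all genes were higher. *Dnmt3l*, *Tet1* and *Dppa3* are also expressed in ES cells, whose 10 marker genes summed to 199.5 and 961 FPKM at day 4, with 9 higher, and the part of such cells in these values was not tested. At day 6, *Dnmt3b*, *Dnmt3l*, *Tet1* and *Tet2* were higher and *Tet3* was lower, or 4 and 1 of 19, against 10.5% and 9.84% of all genes. In that pair 8 of 10 ES cell genes were higher and 12 of 12 neuron genes lower. In spinal column *Dnmt3a*, *Tet1* and *Tet3* were lower in KO tissue, or 3 of 17, against 8.53%, in a pair with 8 of 12 neuron genes lower. The part of these cells in the day 6 and spinal column values was not tested.

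A further list of 46 imprinted genes, of which 43 were found, gave the same counts of 0 in ES cells and 0 at day 2, among 25 and 23 genes compared, where 1.03% and 2.5% of all genes were past 2-fold. At day 4, 7 of 27 were more than 2-fold higher under the KO label, against 12.1% of all genes. Among them were *Peg13* (log2 ratio 5.17), *Sfmbt2* (3.23), *Ins2* (2.85) and *Pdk4* (2.73). Of the 7, *Peg13*, *Ins2*, *Pdk4*, *Klf14* and *Qpct* were compared only through the library labelled KO, so nothing is read from this share. Lower were 2, *Casd1* and *Ano1*, against 4.3% of all genes. At day 6, 10 of 30 were higher, against 10.5% of all genes, including *Dio3* of the *Dlk1* cluster (2.12) and *Tfpi2* (2.57). Lower were 4, *Th*, *Asb4*, *Begain* and *Inpp5f*, against 9.84%. *Tfpi2*, *Peg13* and *Ano1* were compared only through the library labelled KO, and *Th* and *Asb4* only through that labelled WT. Counts with both libraries above 1 FPKM are not given for this list, and nothing is read from these shares. The marker genes given above moved with this list too, at day 6 with 8 of 10 ES cell, 9 of 9 trophectoderm and 7 of 12 fibroblast and mesenchyme genes higher and 12 of 12 neuron genes lower, and at day 4 with 9 of 10, 8 of 8 and 11 of 12 of the first 3 lists higher. Their part in these counts was not tested. In spinal column 2 of 36 were higher and 6 lower, where 8.94% and 8.53% of all genes were, *Ipw* of the Prader-Willi region having a log2 ratio of -1.69. In that pair 8 of 12 neuron genes were more than 2-fold lower, and their part in these counts was not tested.

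Each pair of *Igf2r* and *Airn*, *Mest* and *Copg2*, and *Gnas* and *Nespas* shares 1 locus span in the tables, as do *Ddc* and *1700042O10Rik*. The same holds for members paired with genes of the further imprinted list: *Nnat* and *Blcap*, *Zrsr1* and *Commd1*, *Usp29* and *Zim3*, and *Kcnq1ot1* and *Kcnq1*. Within that list it holds for *Peg13* and *Trappc9*. The sources used here do not say whether the libraries kept strand, so reads of such overlapping genes may not be told apart. The FPKM of *Grb10* covers all its transcripts, so its promoters cannot be compared.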

How the data were processed

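The authors sequenced poly-A RNA, mapped reads against RefSeq genes with TopHat and computed the deposited FPKM values with Cuffdiff for 2 libraries per table, each table being normalized separately. Coordinates are mm9. The deposited score of each ChIP peak is the MACS score after mapping with Bowtie to mm9. Versions are not given in the sources used here. The tables also hold the authors' fold changes and p-values, which were not used.

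Loci of the 6 tables were joined by accession and position (23122 loci in all tables). In 2 tables an identifier joins several accessions, and 7828 of 7832 such identifiers matched a single locus. Symbols came from RefSeq accessions for 22804 loci and, where the accession was not listed (as for *H19*), from GENCODE genes on the same build overlapping by at least 0.9 in both directions for 178. The locus with the highest mean FPKM stood for a symbol. Loci with status HIDATA were taken as having no value. Start sites came from GENCODE on mm9, peak distances used midpoints, and sequences came from the NCBIM37 (mm9) genome. Starts are given 1-based. The members, lists and tests were chosen with earlier results of these data known. Named genes are all members, list genes past 2-fold with up to 3 that define a list, the 5 genes with the largest smallest fall over the culture pairs, and neighbours of *Grb10* within 500 kb. Some genes that share a locus span with a named gene are named too. The counting was tested on simulated data. The analysis used pandas 2.3.3 and numpy 2.4.6 under Python 3.11.15, and matplotlib 3.10.9 for plots.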

Additional observations from a re-analysis of the deposited data

Results flagged for a closer look

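*Mirg* and *Dlk1*, both of the chromosome 12 cluster, were more than 2-fold apart in opposite directions in different pairs of libraries. The log2 ratio of *Mirg* was -1.89 in ES cells, 2.23 at EB day 6 and 2.74 in spinal column. That of *Dlk1* was 1.22 at EB day 2 and -2.17 at EB day 6. The day 2 value of *Dlk1* rests on 0.543 and 1.26 FPKM. With 1 FPKM added it lay within 2-fold, and with both libraries above 1 FPKM, or 1 above 5 FPKM, *Dlk1* was not compared at day 2, so that 2 members in place of 3 were higher there. Each pair is 1 library per label, and these differences between pairs were not tested.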

How the results depend on the processing

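Depth is unknown and each condition is 1 library, so no count carries a replicate error and no difference was tested. Counts of members were recomputed with 1 FPKM added, with no filter, with a minimum of 5 FPKM, after centring, with summed loci, with complete Cuffdiff status, and, chosen after seeing the data, with both libraries above 1 FPKM or without *Grb10*. Of 163 recomputed values, 154 moved by at most 1.5-fold (counts) or by a log2 difference of less than a 1.5-fold change (medians), and 9 counts moved further. No median changed sign, but small ones shifted in proportion, from 0.12 to 0.04 at day 2 and from -0.06 to -0.19 at day 6 with no filter, and from -0.19 to -0.05 in spinal column at a minimum of 5 FPKM. With no filter, 9 members were lower and 8 higher at day 6, against 6 and 8. Without *Grb10*, the members more than 2-fold lower numbered 1 in ES cells (from 2), 0 at day 2 (from 1) and 1 at day 4 (from 2). In spinal column, 0 members were lower with 1 FPKM added and 2 with no filter (from 1), and 2 were higher with no filter (from 1). Of the 6 members higher in all 4 culture pairs, 3 were left at a minimum of 5 FPKM. Without the ES cell pair, 7 members (from 3) were lower in the remaining pairs. With peaks above the median score alone, 8 members (from 13) had TAF9B at a start. The cause of these shifts was not tested, other than that stricter settings keep fewer genes or peaks. No paired analysis was possible because each group has 1 library and the pairs stand in separately normalized tables, from 1 clone per label.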
